A study of Mus musculus with 6 samples.

Results

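The motile cilium axoneme genes described here are 47 genes of the 53421 rows in the table of counts. They encode axonemal dyneins, the factors that assemble and dock them, radial spoke and central pair proteins, the ruler and nexin-dynein regulatory complex, arm-linked proteins and tektins. They were listed by structure and matched to the rows by the symbols of the GRCm38 annotation, and all 47 have a row. The list was drawn up with the shYthdf2 against shCtrl values of these same libraries known. The difference between the groups is therefore given as a description of these libraries, without a test of the genes as a set.

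The libraries were made from granule cells (GCs) of the C57BL/6 mouse cerebellum at postnatal day 8 by the labels, which were dissociated, cultured and infected with a lentivirus carrying shYthdf2 or shCtrl. shYthdf2 is a short hairpin RNA against Ythdf2, which encodes a reader of m6A-modified mRNA, and shCtrl is the control hairpin. Both groups carry a lentivirus and, by the methods, were selected with puromycin. There are 3 libraries in each group, numbered 1, 2 and 4, and the library names point to 1 hairpin, shYthdf2#3. No sort of the dissociated cells is described. The groups follow the library names, because the titles and the genotype labels give the opposite assignment. If the titles are right, every direction below is inverted. The Ythdf2 counts given below were lower in each of the 3 libraries named for the hairpin than in the other 3, but they were not used to assign groups.

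A motile cilium is built on an axoneme, a ring of doublet microtubules around a central pair. Outer and inner dynein arms on the doublets use ATP to slide one doublet against the next, and radial spokes and the central pair control when each arm is active. In the brain such cilia are known from ependymal and choroid plexus cells, whereas neurons carry a single primary cilium without dynein arms. The transcription factors Foxj1, Rfx2 and Rfx3 drive many axoneme genes, and RFX factors bind a motif called the X-box.

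Promoters are shown because the genes share a function and known regulators that the choice of genes did not use. A RefSeq promoter window on GRCm38.p6, from 250 bases before to 50 bases after the gene's start, was at hand for 40 of the 47 genes. The X-box was searched on both strands as the letters GTNNCC and GNAAC with any 3 bases between them. It was found in 8 of the 40 windows (20.0%). Of all 27025 windows 673 (2.49%) held it, as did 13 of 59 of the other axoneme genes and 13 of 51 of the primary cilium and transport genes. Below are 30-base stretches for the 6 of these 8 genes that passed the filter on low counts, on the strand of the gene, with the 14 bases of the match in capitals.
Ccdc114 (chr7:45924192-45924221, plus strand): ggccccttGTCTCCCCAGTAACcagactac
Ccdc151 (chr9:22002647-22002676, minus strand): cgcgggcgGTTTCCTTGGGAACgtgggcgg
Cfap44 (chr16:44394764-44394793, plus strand): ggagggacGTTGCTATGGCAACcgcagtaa
Cfap61 (chr2:145934768-145934797, plus strand): gccgcgtcGTTTCCTTAGCAACtgtgtgcg
Hydin (chr8:110266948-110266977, plus strand): actctgcgGTTGCTGTGGCAACagatggta
Zmynd10 (chr9:107547296-107547325, plus strand): gctccctcGTTTCCATGGCGACgacgactc
Their centres lie between -27 (Ccdc151) and 7 (Zmynd10) bases from the start. Those of Cfap44, Hydin and Zmynd10 match on the opposite strand. Spag16 and Tekt4 are the other 2 genes with a match. The shorter RFX letters GTTGCC, which can overlap an X-box, were found for 16 of the 40 genes and for 14.1% of all genes with a window. A forkhead site, GTAAACA, was found for 2 of the 40 genes (5.0%, Ak7 and Cfap43) and for 4.05% of all genes with a window. These matches are letters in a window and not measured binding.

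The libraries held 17246821 to 21546595 counts. Ythdf2 itself had 618, 841 and 628 normalized counts in shCtrl replicates 1, 2 and 4 and 501, 402 and 501.0 in the shYthdf2 replicates, which is 67.3% of the shCtrl mean. The groups did not overlap for Ythdf2 (exact permutation test, two-sided, p = 0.1, the smallest that 3 libraries against 3 allow). In edgeR's quasi-likelihood test its adjusted p was 0.125. Both libraries numbered 2 stood apart from the libraries numbered 1 and 4, and this touches most values below. Normalized counts are counts scaled by TMM to a common library size, and they are given throughout in the order of replicates 1, 2 and 4.

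The axoneme genes were detected at a low level. Together they held between 0.00699% and 0.0187% of the counts of a library. The summed level of the 47 genes was 98.1, 72.2 and 99.2 counts per 1000000 (CPM) in shCtrl and 175, 121.0 and 184 CPM in shYthdf2. The lowest shYthdf2 library was thus above the highest shCtrl library, and the ratio of the means was 1.78 (89.9 ± 15.3 CPM in shCtrl and 160.2 ± 34.1 CPM in shYthdf2, SD, n = 3). Fewer cells of a type and less RNA per cell cannot be told apart in bulk RNA. Per kb of exon length, the median level of the genes tested was 0.412 CPM against 4.38 CPM over all genes tested, and 0 of them lay above that median. The highest levels per kb were those of Drc1 (2.48 CPM) and Tekt2 (2.43 CPM), and the lowest of a tested gene was that of Dnah3 (0.0437 CPM). Drc1 and Tekt2 are short genes beside the dynein heavy chains, whose highest level per kb was 0.723 CPM, for Dnah7b.

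The filter on low counts kept 40 of the genes and removed 7. Those removed were Dnah8 (at most 5 counts in a library), Dnaaf1 (11), Lrrc6 (5), Armc4 (9), Spag16 (7), Ccdc113 (12) and Tekt4 (4). Of the 40, 22 had 10 or more counts in every library. A further 14 had 10 or more in every shYthdf2 library and fewer in at least one shCtrl library, so they could pass the filter through the shYthdf2 group alone. Most of them were higher in that group, but Dnah6 and Tekt1 among them had a log2 fold change below 0. None of the 40 passed an adjusted p of 0.05 in edgeR's quasi-likelihood test (0 of 40, against 0.604% of all 17214 genes tested and 0.244% in the higher direction), and the smallest adjusted p was 0.0761, for Dnah11. At an unadjusted p under 0.05 there were 12, all higher in shYthdf2, where 20.1% of all genes tested had such a p and 9.5% also were higher. DESeq2 called 7 at its adjusted threshold, all higher (2.9% of all genes it tested), and edgeR without the filter on low counts called 4 (0.747%). The 3 shYthdf2 values lay above all 3 shCtrl values for 13 genes and below them for 0. Of all genes tested, 12.6% were separated in the higher direction and 26.0% in either. Of the other axoneme genes, outside the list, 14 of the 47 tested were separated as higher and 0 as lower. Of the primary cilium and transport genes, 20 of the 58 tested were separated as higher and 1 as lower. Since the genes were listed with these values known, nothing is read from these shares.

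In the fit, 35 of the 40 genes had a log2 fold change above 0 and 5 below. Their median was 0.59 on the log2 scale, against 0.01 over all genes tested. Without the filter, the median of all 47 was 0.59, against 0.03 over all genes. The 5 below 0 were Cfap43, Tekt1, Dnah6, Cfap70 and Cfap100. Within replicate numbers, 26 genes were higher in shYthdf2 for all 3 numbers, 8 for 2, 5 for 1, and Cfap43 for 0.

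**Figure D1:**
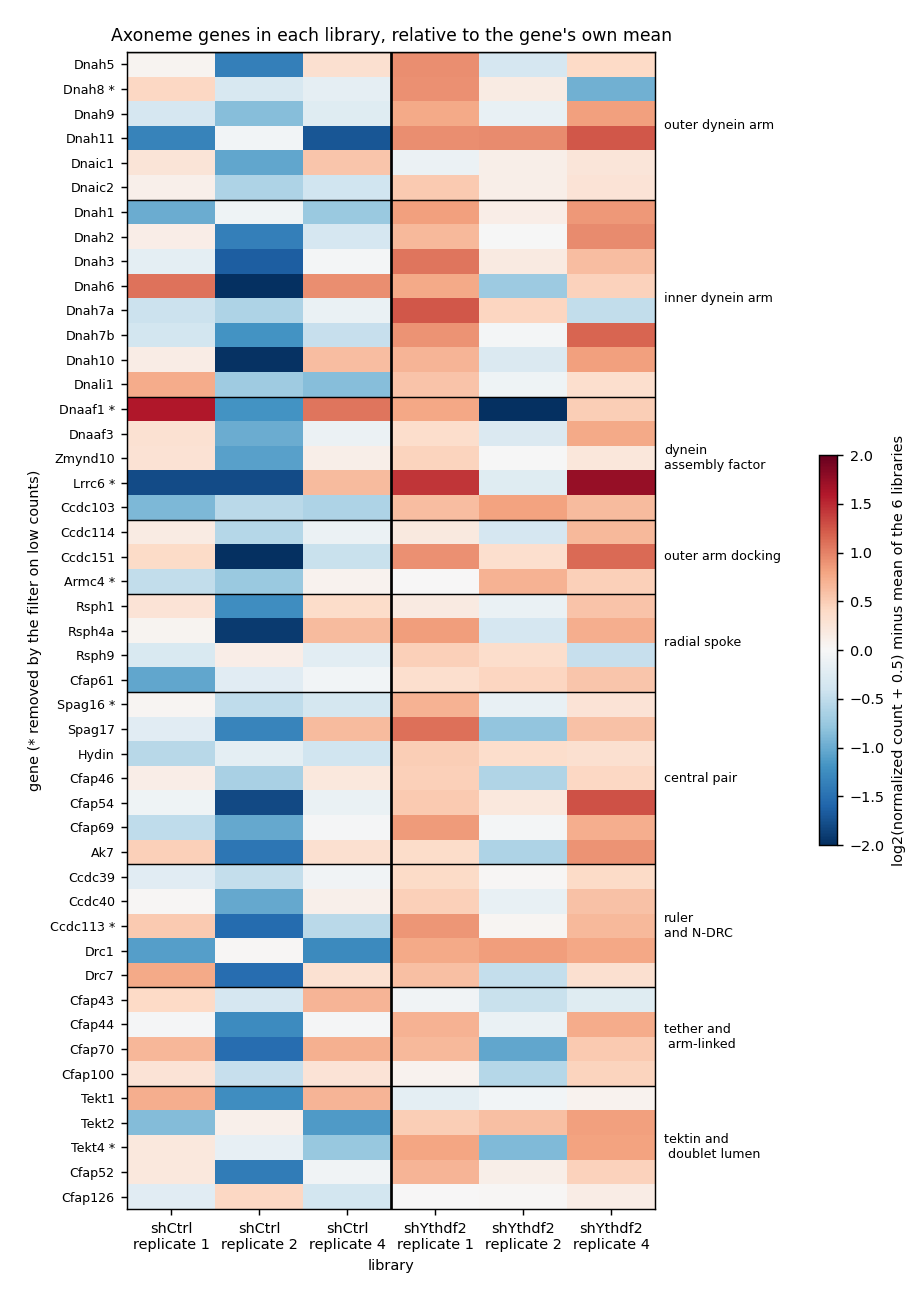
Each row is 1 of the 47 axoneme genes, grouped by structure, and each column 1 library. The colour is log2(normalized count + 0.5) minus the gene's mean over the 6 libraries. The shCtrl replicate 2 column is the lowest of the shCtrl columns for 30 of the 40 genes tested, and Dnah11, Drc1 and Tekt2 are among the rows in which it is not.

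Outer dynein arms, the main motors of beat frequency, were represented by 6 genes, with a summed level of 9.67, 10.5 and 8.91 CPM in shCtrl and 24.5, 20.2 and 26.4 CPM in shYthdf2. The ratio of 2.44 was the highest of the 9 structures. Dnah11, an outer arm heavy chain gene on chromosome 12 (GRCm38 117877982 to 118199043, minus strand), had 51.5, 127 and 39.5 normalized counts in shCtrl and 249.9, 254 and 309.9 in shYthdf2. The groups were well apart, and within shCtrl it was replicate 2 that stood high. The log2 fold change of Dnah11 was 1.90 (SE 0.41), the largest of the 40. With 1 library left out, it ran from 1.60 (without shCtrl replicate 4) to 2.56 (without shCtrl replicate 2). Part of its exons lies opposite exons of Cdca7l, which had at most 22 counts. Dnaic1, an outer arm intermediate chain gene, had 15.1, 5.81 and 18.7 normalized counts in shCtrl and 11.5, 13.6 and 14.9 in shYthdf2. Its groups overlapped, and its log2 fold change was 0.02 (SE 0.46). The other tested genes of the outer arm, the heavy chain genes Dnah5 and Dnah9 and the intermediate chain gene Dnaic2, had log2 fold changes from 0.59 to 1.00. Groups did not overlap for Dnah9 and Dnaic2.

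Inner dynein arms, which shape the bend of the cilium, had 8 genes, all of which passed the filter. Their summed level was 23.2, 15.1 and 23.0 CPM in shCtrl and 49.9, 27.5 and 54.4 CPM in shYthdf2, a ratio of 2.15. The inner arm heavy chain gene Dnah7b (chromosome 1, 46066315 to 46373546, plus strand) had 182, 102 and 169 normalized counts in shCtrl and 437, 229 and 528 in shYthdf2. Replicate 2 was the lowest library of both groups, and the groups still did not overlap. For Dnah7b the log2 fold change was 1.40 (SE 0.35), with an adjusted p of 0.0976 in edgeR, and 1.36 with an adjusted p of 0.0445 when the replicate number was a block in the fit. It was the only one of the genes to pass with the block, and 0.529% of all genes tested passed in that direction. Dnah7b, Dnah7a and Dnah7c are near-identical copies (Dnah7c had 19 to 63 counts in a library), so how the reads were split among them is uncertain. Dnah6, another inner arm heavy chain gene, had 52.3, 3.88 and 47.2 normalized counts in shCtrl and 41.8, 14.5 and 34.0 in shYthdf2. Here the spread within shCtrl was larger than the difference between groups, and the log2 fold change of -0.20 (SE 0.78) had the largest error of the 40. Among the other inner arm genes (Dnah1, Dnah2, Dnah3, Dnah7a, Dnah10 and the light chain gene Dnali1), log2 fold changes ran from 0.36 to 1.20. Dnah1 and Dnah3 had groups that did not overlap.

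**Figure D2:**
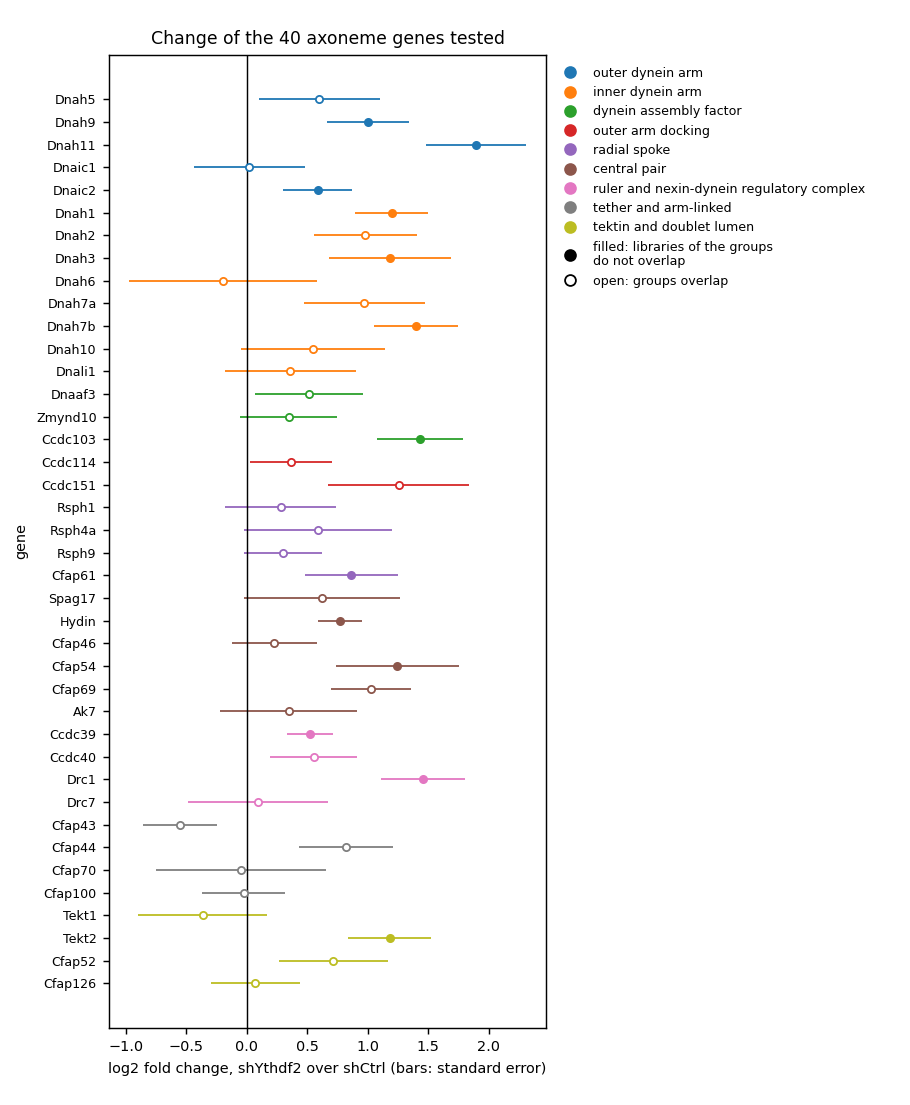
Log2 fold change of shYthdf2 over shCtrl (x axis) for each of the 40 genes tested (y axis), with bars for the standard error and colours for the structures. Filled points are the 13 genes whose groups do not overlap, and all 13 lie to the right of 0.

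Dynein arms are assembled in the cytoplasm before they enter the cilium, and 5 genes of the list encode factors for this step. Their summed level was 3.55, 1.43 and 3.06 CPM in shCtrl and 4.24, 2.96 and 4.41 CPM in shYthdf2. Zmynd10, a chaperone adaptor for dynein heavy chains, had 31.1, 11.6 and 27.5 normalized counts in shCtrl and 34.5, 25.2 and 29.7 in shYthdf2. The groups overlapped (log2 fold change 0.35, SE 0.40). Ccdc103, needed for arm attachment, had 4.43, 5.81 and 5.49 normalized counts in shCtrl and 13.6, 15.5 and 13.8 in shYthdf2. It was the only one of the 40 with 10 or more counts in every shYthdf2 library and under 10 in every shCtrl library, and its log2 fold change was 1.43 (SE 0.36). Dnaaf3 had a log2 fold change of 0.52 with overlapping groups.

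The docking complex fixes outer arms to the doublets. Ccdc114 had 47, 28.1 and 38.5 normalized counts in shCtrl and 48.1, 33.0 and 65.8 in shYthdf2, with overlapping groups and a log2 fold change of 0.37 (SE 0.34). Its partner Ccdc151 had 47, 6.78 and 26.4 in shCtrl and 68.0, 45.6 and 79.6 in shYthdf2. The overlap came from 1 pair of libraries, since shYthdf2 replicate 2 lay just under shCtrl replicate 1. The log2 fold change of Ccdc151 was 1.26 (SE 0.58). With 1 library left out, it ran from 0.79 (without shCtrl replicate 2) to 1.96 (without shCtrl replicate 1). Both genes have an X-box match close to the start, in the stretches shown above.

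Radial spokes carry signals from the central pair to the arms. The summed level of their 4 genes was 4.39, 3.52 and 5.44 CPM in shCtrl and 6.83, 5.31 and 5.81 CPM in shYthdf2, so the groups overlapped. Rsph9, a spoke head gene, had 31.9, 43.6 and 34.1 normalized counts in shCtrl and 55.4, 50.4 and 28.7 in shYthdf2. Rsph1, another head gene, had 25.7, 8.72 and 27.5 in shCtrl and 24.1, 19.4 and 31.8 in shYthdf2. Neither gene separated the groups, and the log2 fold changes were 0.30 (SE 0.32) and 0.28 (SE 0.46). Cfap61, a gene for a spoke-associated protein, had 5.32, 9.69 and 11.0 in shCtrl and 14.6, 15.5 and 17 in shYthdf2. These groups did not overlap (log2 fold change 0.86, SE 0.38), at counts of 16 or fewer in a library. Rsph4a had a log2 fold change of 0.59 (SE 0.61).

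The central pair and its projections had 7 genes, with a summed level of 18.7, 13.4 and 21.4 CPM in shCtrl and 33.4, 20.8 and 32.6 CPM in shYthdf2. Cfap69 had 86.0, 60.1 and 121 normalized counts in shCtrl and 222, 119 and 202 in shYthdf2. Only shYthdf2 replicate 2 lay within the shCtrl range (log2 fold change 1.025, SE 0.33). Cfap54, a projection gene, had 20.4, 5.81 and 19.8 in shCtrl and 31.4, 25.2 and 53.1 in shYthdf2. Its groups did not overlap, and its log2 fold change of 1.25 (SE 0.51) was the largest of the central pair. Cfap46, of the same projection, had 112, 64.9 and 118 in shCtrl and 142, 66.9 and 136 in shYthdf2, the smallest change of the structure (0.23, SE 0.35). Hydin, named here after its values were seen, had 81.6, 106 and 91.2 in shCtrl and 169, 154 and 151 in shYthdf2. Hydin had the smallest error of the 40 (log2 fold change 0.77, SE 0.18), and its groups did not overlap. Spag17 and the adenylate kinase gene Ak7 had log2 fold changes of 0.62 and 0.34 with overlapping groups.

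The molecular ruler of Ccdc39 and Ccdc40 sets the repeat along the doublet, and the nexin-dynein regulatory complex links neighbouring doublets. Drc1, a core subunit of that complex (chromosome 5, 30281388 to 30366695, plus strand), had 49.7, 108 and 43.9 normalized counts in shCtrl and 182, 191 and 184 in shYthdf2. The shYthdf2 libraries lay close together and above all the shCtrl libraries, and within shCtrl replicate 2 stood high as it did for Dnah11. The log2 fold change of Drc1 was 1.46 (SE 0.35). Drc7, of the same complex, had 30.2, 5.81 and 22 in shCtrl and 27.2, 12.6 and 22.3 in shYthdf2, with overlapping groups and a log2 fold change of 0.09 (SE 0.58). Ccdc39 and Ccdc40 had log2 fold changes of 0.52 and 0.55, and the groups did not overlap for Ccdc39. Exons of Ccdc39 share 1256 bases with Ttc14 on the opposite strand, which had up to 2841 counts.

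Tether and arm-linked genes had the lowest ratio of the 9 structures. Their summed level was 13.7, 7.09 and 14.8 CPM in shCtrl and 15.2, 9.29 and 15.9 CPM in shYthdf2, a ratio of 1.13, and 3 of the 4 had a log2 fold change below 0. Cfap43, of the tether that holds an inner arm, had 91.4, 54.2 and 111 normalized counts in shCtrl and 65.9, 50.4 and 58.4 in shYthdf2. It was the gene with the lowest log2 fold change of the 40 (-0.55, SE 0.30), and the groups overlapped only through shCtrl replicate 2. Cfap44, its partner in the tether, had 94.0, 39.7 and 94.5 in shCtrl and 156, 87.3 and 160.3 in shYthdf2, with a log2 fold change of 0.82 (SE 0.39). The partners of this complex thus differed in sign, and the difference between them was not tested. Cfap100, linked to an inner arm, had 64.8, 38.8 and 64.8 in shCtrl and 56.5, 35.9 and 73.2 in shYthdf2 (-0.03, SE 0.34). Cfap70, an outer arm-linked gene, had a log2 fold change of -0.05 (SE 0.70).

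Tektins are filament proteins inside the doublets. Tekt2 had 42.6, 83.3 and 35.1 normalized counts in shCtrl and 109.8, 118 and 138 in shYthdf2. The groups did not overlap, and the log2 fold change was 1.18 (SE 0.34). Tekt1 had 20.4, 4.84 and 19.8 in shCtrl and 10.5, 11.6 and 12.7 in shYthdf2, so that its shYthdf2 values all lay between the shCtrl values (-0.37, SE 0.53). The genes for the lumen proteins Cfap52 and Cfap126 had log2 fold changes of 0.72 and 0.07 with overlapping groups.

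**Figure D3:**
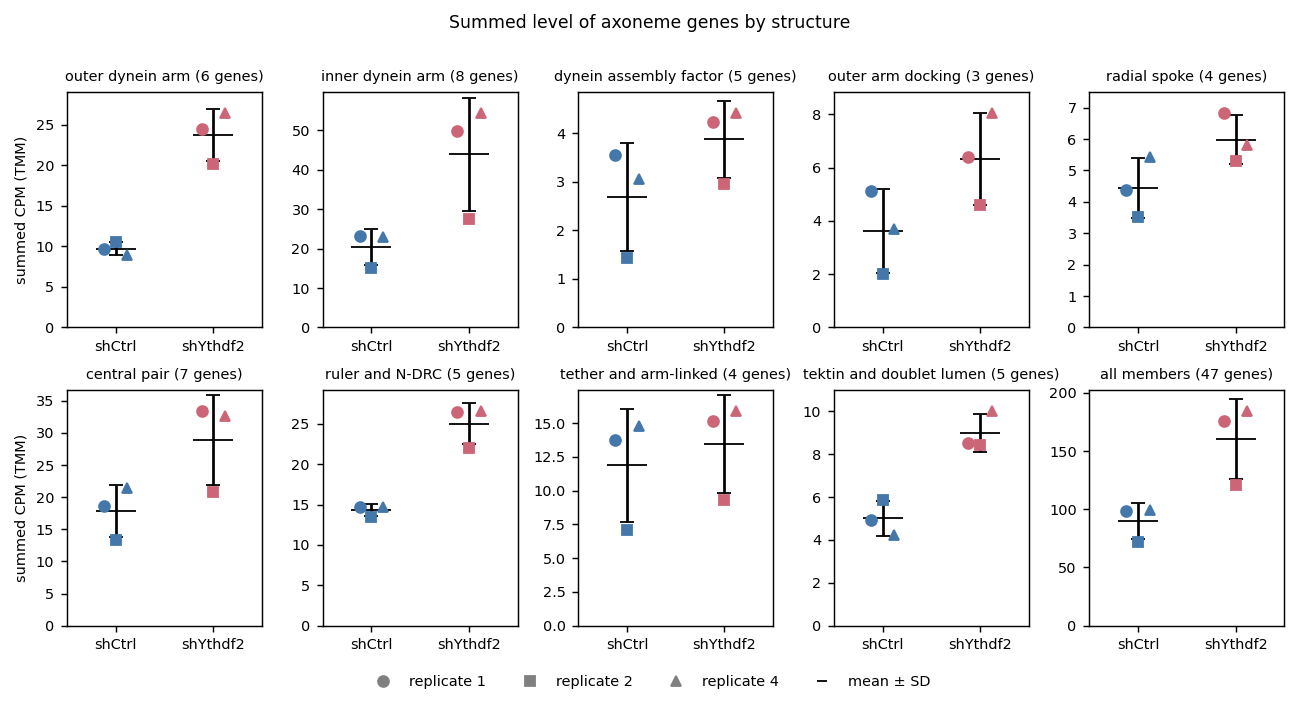
Each panel gives the summed CPM (y axis, from 0) of the genes of a structure in the 3 shCtrl and 3 shYthdf2 libraries, with symbols for replicates 1, 2 and 4 and bars for the mean and SD. The outer arm sums separate most, from 8.91 to 10.5 CPM in shCtrl and from 20.2 to 26.4 CPM in shYthdf2, and the tether and arm-linked sums overlap.

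Replicate 2 was the library that moved most axoneme genes within a group. In shCtrl it was the lowest of the 3 libraries for 30 of the 40 genes and the highest for 8, against 44.4% and 44.8% of all genes tested. In shYthdf2 it was the lowest for 29 and the highest for 2, against 43.6% and 44.2%. The median log2 ratio of replicate 2 to the mean of replicates 1 and 4 was -0.99 in shCtrl and -0.69 in shYthdf2, and 0.00 over all genes tested in both groups. Within replicate numbers, the median log2 difference of the 40 genes between shYthdf2 and shCtrl was 0.53 for number 1, 0.92 for number 2 and 0.55 for number 4, with 30, 37 and 32 genes higher. Over all genes tested these medians were 0.01, 0.00 and 0.00. Without both libraries numbered 2, the median of the axoneme genes was 0.51 and the ratio of the summed levels 1.82. In that fit 15 of the genes passed the adjusted p as higher and Cfap43 as lower, where 25.8% and 26.9% of all 17422 genes tested did. Without shCtrl replicate 2 alone, 6 passed as higher (Dnah11, Drc1, Tekt2, Dnah1, Hydin and Ccdc103) and Cfap43 as lower, against 9.42% and 8.84% of all genes tested. With a batch term for the libraries numbered 2, 14 passed, all higher, against 10.4%. Nothing is read from these shares, for the reason given above.

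The 8 genes that were highest in shCtrl replicate 2 were Dnah11, Dnah1, Ccdc103, Rsph9, Hydin, Drc1, Tekt2 and Cfap126, a group formed after the values were seen. Their summed level was 18.1, 32.9 and 18.2 CPM in shCtrl and 55.1, 50.2 and 58.0 CPM in shYthdf2. The 30 genes that were lowest there summed to 77.2, 37.9 and 78.9 CPM in shCtrl and 116, 68.3 and 123 CPM in shYthdf2. In the first group the shCtrl libraries 1 and 4 were the low ones, and in the second both libraries numbered 2 were.

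**Figure D4:**
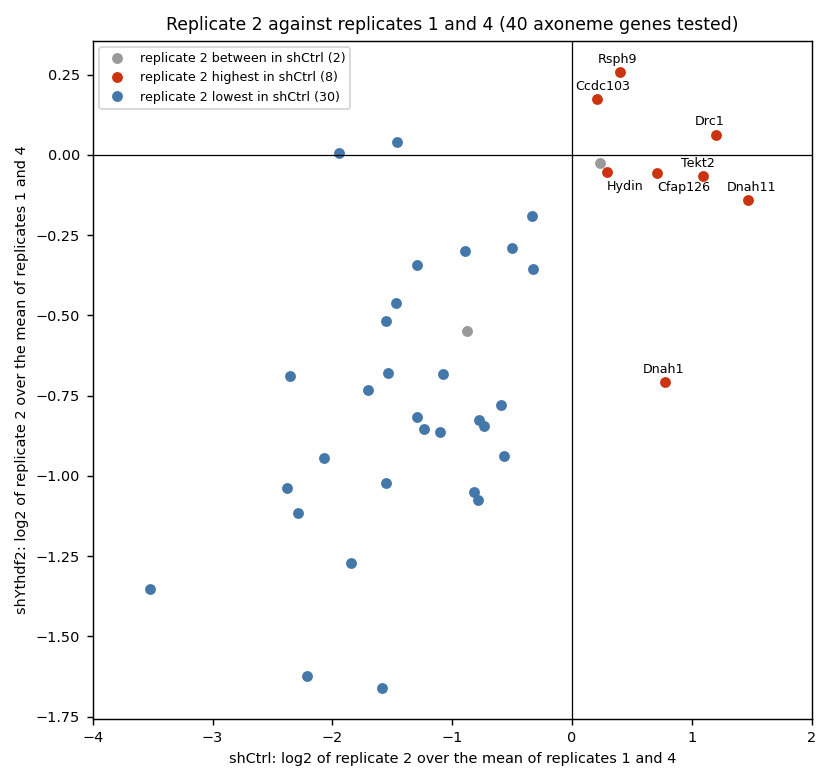
Each point is 1 of the 40 genes tested. The x axis is the log2 ratio of replicate 2 to the mean of replicates 1 and 4 in shCtrl, and the y axis the same in shYthdf2. The 8 labelled genes, highest in shCtrl replicate 2, lie to the right of 0, while 30 genes lowest in that library lie to the left.

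Markers of other cells also differed between the libraries. The 9 oligodendrocyte lineage markers summed to 281, 943 and 271 CPM in shCtrl and 725, 965 and 749 CPM in shYthdf2, so that shCtrl replicates 1 and 4 were the low libraries, as for the 8 genes above. All 9 had a log2 fold change above 0. The 8 microglia markers summed to 13.2, 51.5 and 12.1 CPM in shCtrl and 68.8, 25.2 and 76.3 CPM in shYthdf2, and the 12 astrocyte and Bergmann glia markers to 506, 869 and 514 CPM and to 789, 737 and 782 CPM. Of these 12 glial markers, 10 had a log2 fold change above 0 and 2 below, with a median of 0.29. Slc1a2, named after its values were seen, was lower without overlap. It had 3032, 1575 and 3080 normalized counts in shCtrl and 934, 1022 and 878 in shYthdf2. Vascular and fibroblast markers were highest in both libraries numbered 2, at 308 and 399 CPM against 121 to 158 CPM in the others. The part of these cells in the values of the axoneme genes was not tested. Granule neuron markers summed to between 10890 and 11740 CPM in every library. Of these 14 genes, 8 had a log2 fold change above 0 and 6 below, with a median of 0.06. The groups did not overlap for 3 as higher and 3 as lower, where 12.6% of all genes tested were higher and 26.0% either way. Zic1 and Reln, named after their values were seen, were the largest parts, with shCtrl means of 62070 and 43530 normalized counts. The steady sum thus holds genes that moved in opposite directions.

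Lists of other cerebellar neurons and of progenitors differed as well. The 10 granule progenitor markers summed to 649.9, 543 and 613 CPM in shCtrl and 421, 448 and 435 CPM in shYthdf2, lower without overlap and with a ratio of 0.722. Barhl1, named after its values were seen, held most of that sum. It had 11270, 8636 and 10640 normalized counts in shCtrl and 6636, 6611 and 6778 in shYthdf2. Of the 8 progenitor markers tested, 7 had a log2 fold change above 0 and only Barhl1 was below, with a median of 0.41. The fall of the sum is thus that of 1 gene, against the direction of the others. Purkinje cell markers (8 genes) summed to 121, 130.1 and 122 CPM in shCtrl and 149, 169 and 153 CPM in shYthdf2, higher without overlap (ratio 1.27). Most of this sum was Rora, also named after its values were seen, with 1300, 1516 and 1318 normalized counts in shCtrl and 2087, 2114 and 2095 in shYthdf2. Of the 7 Purkinje markers tested, 2 had a log2 fold change above 0 and 5 below, with a median of -0.13. The 7 GABAergic interneuron markers gave 371, 406 and 366 CPM in shCtrl and 461, 548 and 457 CPM in shYthdf2, higher without overlap (ratio 1.28). Gad1, named after its values were seen, was the largest part, with means of 3300 normalized counts in shCtrl and 4640 in shYthdf2. All 7 were tested, and 5 had a log2 fold change above 0 and 2 below, with a median of 0.21. Of these 7, 1 passed the test as higher, where 0.244% of all genes tested did. That was Tfap2b, a transcription factor gene (log2 fold change 0.83, adjusted p = 0.0496 in edgeR). Unipolar brush cell markers lay between 624 and 718 CPM and overlapped. The part of these lists in the axoneme values was not tested.

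Ependymal markers were low. The 11 genes summed to 5.93, 2.85 and 7.11 CPM in shCtrl and 8.09, 4.39 and 7.88 CPM in shYthdf2, with both libraries numbered 2 the lowest of their groups, as for the 30 genes, and a ratio of group means of 1.28. Sntn had at most 2 counts and Tmem212 at most 19, while Fam216b reached 41, Riiad1 33 and Ccdc153 27, counts like those of many axoneme genes. None of the 11 was at 0 in every library, and 4 passed the filter, of which 3 had a log2 fold change above 0 and 1 below. The 12 choroid plexus markers summed to 164, 109 and 166 CPM in shCtrl and 155, 103 and 161 CPM in shYthdf2. This sum too was lowest in both libraries numbered 2, and its ratio of group means was 0.956. Otx2 and Enpp2 held most of it in every library. Otx2 had 1624, 1180 and 1571 normalized counts in shCtrl and 1215, 1052 and 1217 in shYthdf2. Enpp2 had 572, 795 and 596 in shCtrl and 851, 802 and 937 in shYthdf2. The sum therefore says little about the other 10 markers. Ttr, the transthyretin gene of the choroid plexus, had 796, 27.1 and 889.8 normalized counts in shCtrl and 738, 16.5 and 774 in shYthdf2, so both libraries numbered 2 held little of it. Clic6 had 40.8, 2.91 and 35.1 in shCtrl and 31.4, 2.91 and 21.2 in shYthdf2, with the same low libraries. Folr1 went another way, with 21.3, 33.9 and 11.0 in shCtrl and 55.4, 49.4 and 54.1 in shYthdf2, higher without overlap (edgeR, adjusted p = 0.145). These ependymal and choroid plexus genes were named after their values were seen. Their part in the axoneme values was not tested either.

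Of the regulators, Foxj1, the master factor of motile cilia, had 397, 249.9 and 390.0 normalized counts in shCtrl and 442, 411 and 504 in shYthdf2. The groups did not overlap, but the log2 fold change of 0.39 (SE 0.20) did not pass the test (edgeR, adjusted p = 0.325). Rfx3 had 1041, 952 and 969 in shCtrl and 1636, 1337 and 1563 in shYthdf2, again without overlap and with a log2 fold change of 0.61 (SE 0.11, adjusted p = 0.0572 in edgeR). Rfx2 (42.6, 53.3 and 52.7 in shCtrl and 54.4, 46.5 and 58.4 in shYthdf2) had overlapping groups. The upstream multiciliation factors Gmnc and Mcidas had log2 fold changes of 0.17 (SE 0.49) and -0.43 (SE 0.34), both with overlapping groups. Of the 18 multiciliation regulators 14 were tested, and 0 passed the adjusted p in edgeR (2 higher and 1 lower at an unadjusted p under 0.05, where 20.1% of all genes tested had such a p, and DESeq2 called 1 gene of this and the ependymal list, higher). The lower one was Trp73, with 231, 231 and 232 normalized counts in shCtrl and 168, 186 and 182 in shYthdf2 (log2 fold change -0.37, adjusted p = 0.201 in edgeR). The 6 tested genes with an X-box match had log2 fold changes from 0.35 to 1.26, with a median of 0.79, and the 30 tested genes with a window and no match ran from -0.55 to 1.90, with a median of 0.55. This is a description of few genes, and the difference was not tested.

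Other axoneme genes, outside the list, were also counted. Of the 75 such genes 47 were tested, and 32 had a log2 fold change above 0 and 15 below, with a median of 0.27. One of them passed the test (1 higher, 0 lower, where 0.604% of all genes tested passed). That gene was Efcab1, which encodes a calcium-binding axoneme protein, with 65.6, 97.8 and 78.0 normalized counts in shCtrl and 195.5, 195.8 and 195.3 in shYthdf2 (log2 fold change 1.28, SE 0.20, adjusted p = 0.0496 in edgeR). The summed level of the 75 genes was 308, 248 and 313 CPM in shCtrl and 343, 294 and 341 CPM in shYthdf2, a ratio of 1.125. Dnal1, Gas8 and Cfap20, named after their values were seen, were the largest parts of this sum. Their means were 740, 738 and 736 normalized counts in shCtrl and 892, 588 and 732 in shYthdf2. The ratio therefore leans on a few genes. The difference between the 75 genes and the 47 was not tested, as the 47 were chosen with the values known. Genes that non-motile cilia also use gave 1 call in 58, in the higher direction, where 0.244% of all genes tested passed as higher. It was Ahi1, a gene of the ciliary transition zone, with 1378, 1643 and 1416 in shCtrl and 2516, 2395 and 2430 in shYthdf2 (log2 fold change 0.73, SE 0.10, adjusted p = 0.0464 in edgeR). Of these 58 genes, 45 had a log2 fold change above 0 and 13 below, with a median of 0.25 against 0.01 over all genes tested.

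**Figure D5:**
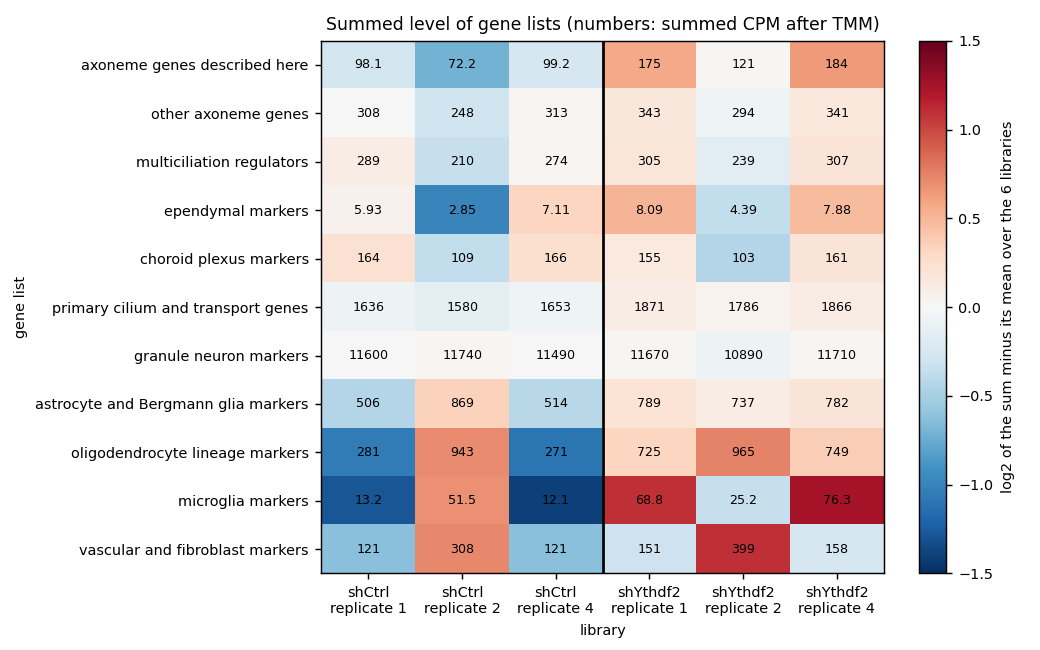
Rows are gene lists and columns the 6 libraries. The number in each cell is the summed CPM and the colour its log2 minus the mean of the row. The axoneme genes described here and the ependymal markers are lowest in shCtrl replicate 2, whereas oligodendrocyte and microglia markers are lowest in shCtrl replicates 1 and 4.

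The counting can also affect single genes. Exons of 22 of the 47 genes share bases with another gene, and for 8 of them that gene had more counts than the axoneme gene (Ccdc39, Cfap100, Cfap61, Dnaaf1, Dnah3, Dnaic1, Dnali1 and Spag17). The strand setting of the counting is not given in the sources used here, so reads of such a pair cannot be told apart by strand. Dnah3 shares 1506 bases with Lyrm1 and Spag17 shares 820 with Wdr3. For Cfap100 and Dnaic1 the shared stretches are 12 and 15 bases.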

How the data were processed

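Cultured GCs were profiled by RNA-seq in 3 shYthdf2 and 3 shCtrl libraries, which the methods describe as biological replicates. The authors deposited a table of raw counts per gene, as whole numbers without normalization. By the methods, HISAT and TopHat2 mapped the filtered reads to GRCm38 and HTSeq counted them, from libraries made with a NEBNext Ultra kit. The submitters' processing notes name mm9 and Bowtie 0.12.2, and the labels name a TruSeq kit. The identifiers of the table fit GRCm38, and 785 rows lie outside its annotation.

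Groups and replicate numbers (1, 2 and 4) were taken from the library names. The titles and genotype labels are the other way round. Age is day 8 in the labels and a range of days ending there in the methods.

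The tests on counts used R 4.3.3 and edgeR 4.0.16, with filterByExpr by group (at least 10 counts, and 15 in total), TMM scaling, the quasi-likelihood test and Benjamini-Hochberg adjustment over the 17214 genes tested. SDs cover differences between libraries and counting error, and depth limits genes with few counts. Normalized counts refer to a common library size of 18997699, and CPM to TMM-scaled libraries. Exon lengths and positions are those of the GENCODE annotation of GRCm38. Differences within replicate numbers used a pseudocount of 0.5. Motifs were searched as fixed letters in RefSeq windows of 300 bases. Tests were checked on simulated counts.

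The genes and lists were chosen with earlier results of these data known. Values per library are given for the tested genes of each structure with the highest level per kb and the largest and smallest log2 fold change, and of other lists for at most 5 genes past the threshold. Foxj1, Rfx2, Rfx3, Gmnc, Mcidas and Ythdf2 were given whatever their values. Marker lists of other cerebellar cells were summed in the same way.

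Deviations from the group means correlated between libraries of the same number (0.263, 0.367 and 0.281 for 1, 2 and 4). Values for unlike numbers are not given, and both libraries numbered 2 stood apart, so these correlations cannot establish that the numbers are pairs. The main fit used the group only, and the replicate block was used as an alternative. Other alternatives were RLE factors, library size only, DESeq2 1.42.0, limma-voom 3.58.1, no filter, a filter of 10 counts in every library, and each library left out. A batch term for the libraries numbered 2, and their omission, were added after the data were seen. Plots were drawn with matplotlib 3.10.9.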

Additional observations from a re-analysis of the deposited data

How the results depend on the processing

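The libraries numbered 2 decide how many genes pass, and low counts limit single genes. The median log2 fold change of the axoneme genes stayed above 0 under all 15 alternatives, 2 of them chosen after the data were seen. It ran from 0.36 (without shCtrl replicate 2) to 0.82 (without shYthdf2 replicate 2) when 1 library was left out. The ratio of summed levels, which the test, filter and block do not enter, ran from 1.62 to 1.999 over scalings and libraries left out. It was 1.66 per kb of exon length and 1.7 without the gene with the most counts. Of 306 values of the 21 genes named by the rule, 251 kept their sign and side of the threshold, 4 kept their sign but had no adjusted p in DESeq2 (Ccdc103, Cfap61, Dnaic1 and Tekt1), 34 passed it with the same sign, and 17 changed sign without passing it. The causes of these differences were not tested.

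The count of genes passing among all genes, 104, became 24 with limma-voom, 1154 with DESeq2 and 639 without a filter. For the axoneme genes 0 became 7 with DESeq2 (Dnah11, Dnah7b, Drc1, Dnah1, Hydin, Tekt2 and Cfap69) and 4 without a filter. The other axoneme genes (1) and the primary cilium genes (1) each became 0 with limma-voom. Primary cilium genes became 9 with DESeq2, 5 without a filter and 2 with 10 counts in every library. The ependymal and multiciliation genes (0) became 1 with DESeq2 and 1 without a filter.

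With the replicate block, which takes libraries of the same number as pairs, 232 genes passed in all, 1 axoneme gene (Dnah7b), 1 ependymal or multiciliation gene and 2 primary cilium genes. The block changed no other of these counts by more than 1.5 times. With the batch term these counts were 3799, 14, 3 and 22, and 10 of the other axoneme genes. Without both libraries numbered 2 they were 9186, 16 (Cfap43 lower, the others higher), 8 and 32, and 18 of the other axoneme genes.

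Leaving out 1 library gave 0 to 3239 genes in all. The count was 0 without replicate 1 or 4 of either group, 829 without shYthdf2 replicate 2 and 3239 without shCtrl replicate 2. It gave 0 to 7 axoneme genes (7 without shCtrl replicate 2, of which Cfap43 was lower), 0 to 3 other axoneme genes, 0 to 1 ependymal or multiciliation genes and 0 to 13 primary cilium genes.

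Signs changed for 5 genes with reported values between -0.20 and 0.28. The log2 fold change of Dnah6 was 0.32 with limma-voom, 0.0421 with the block and 0.0144 with the batch term, and that of Cfap100 was 0.0074 with library size only. Without both libraries numbered 2, Dnaic1 was at -0.35 and Drc7 at -0.0936. Leaving out 1 library gave -0.73 to 0.24 for Dnah6, -0.28 to 0.21 for Cfap100, -0.33 to 0.33 for Dnaic1, -0.35 to 0.58 for Drc7 and -0.0855 to 0.52 for Rsph1. The lowest of each came without shCtrl replicate 2, except for Cfap100.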
